A study of Macaca mulatta with 10 samples.

Results

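Toll-like receptors are innate immune receptors that bind microbial molecules, either at the cell surface or inside endosomes, and MYD88 is the adaptor protein that carries the signal of all of them except TLR3. The members described here are TLR1, TLR2, TLR3, TLR4, TLR5, TLR6, TLR7, TLR8, TLR10 and MYD88, chosen by gene symbol, and all 10 had a row among the 18622 gene symbols of the authors' table. Lymph nodes were collected from male rhesus macaques, 5 kept under unstable and 5 under stable social conditions, and the question was whether expression differs between these conditions. Each animal gave 1 array, an Illumina Human Ref 8 v 3.0 bead array with probes for human transcripts, so the replicates are separate animals and their number limits the precision. Unstable animals 1 to 3 and stable animal 5 were on slide 1, stable animals 1 to 4 on slide 2, and unstable animals 4 and 5 on slide 3. The age labels, given with no unit, were 6.7 to 6.84 for unstable animals 1 to 3, 5.61 and 5.62 for unstable animals 5 and 4, and 5.73 to 5.87 for the stable animals.

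In textbook terms the surface receptors divide by ligand. TLR4 recognises bacterial lipopolysaccharide together with LY96 and CD14, TLR5 recognises flagellin, and TLR2 pairs with TLR1 or TLR6 to recognise lipopeptides. TLR3, TLR7 and TLR8 sit in endosomes and recognise viral and other RNA, TLR3 through the adaptor TICAM1 and the others through MYD88. TLR10 is a relative of TLR1 and TLR6 that is known from human B cells. In the RefSeq table of macaque genes, assembly T2T-MMU8v2.0, TLR10, TLR1 and TLR6 were adjacent protein-coding genes in that order, and TLR7 lay next to TLR8. In these nodes TLR10 and TLR8 were measured above background in every animal and TLR1, TLR6 and TLR7 in none.

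Values are log2 signals after the authors' normalization, and a value counts as above background when it lies 3 SDs or more over its array's mode, the SD being taken on the lower flank of the distribution, which put the threshold between 6.87 and 6.89 on each array. Of the 10 members, 5 passed this threshold on at least 3 arrays, against 8564 of all genes (46.0%). TLR4, TLR5, TLR8 and TLR10 passed on all 10 arrays. MYD88 passed on 5 arrays, in 2 unstable and 3 stable animals, and TLR2 passed on 1 array, in a stable animal. TLR1, TLR3, TLR6 and TLR7 passed on 0 arrays. Of 56 genes listed as not expected in a lymph node, such as protamines and lens crystallins, 5 passed on at least 3 arrays (8.9%). A human probe can bind a macaque transcript poorly, so a value below the threshold does not show that the gene is silent. Signals were not ranked between genes, since each comes from its own probes.

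The tissue label was set against marker genes. The B cell gene CD79A and the T cell genes CD3D and CD3E were above background on all 10 arrays, as were CD14 and CD68 of monocytes and macrophages and the endothelial genes PECAM1 and VWF. Of 9 plasmacytoid dendritic cell markers 6 were above background, among them LILRA4, a receptor of these cells, which passed on all 10 arrays at 6.95 to 7.47 in unstable and 7.18 to 8.30 in stable animals, while CLEC4C and IL3RA passed on none. The B cell gene MS4A1 also passed on 0 arrays. Median signal per array was 104 to 119 on the linear scale, and all arrays had a mean correlation with the others of 0.976 to 0.985 over genes above background.

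**Figure D1:**
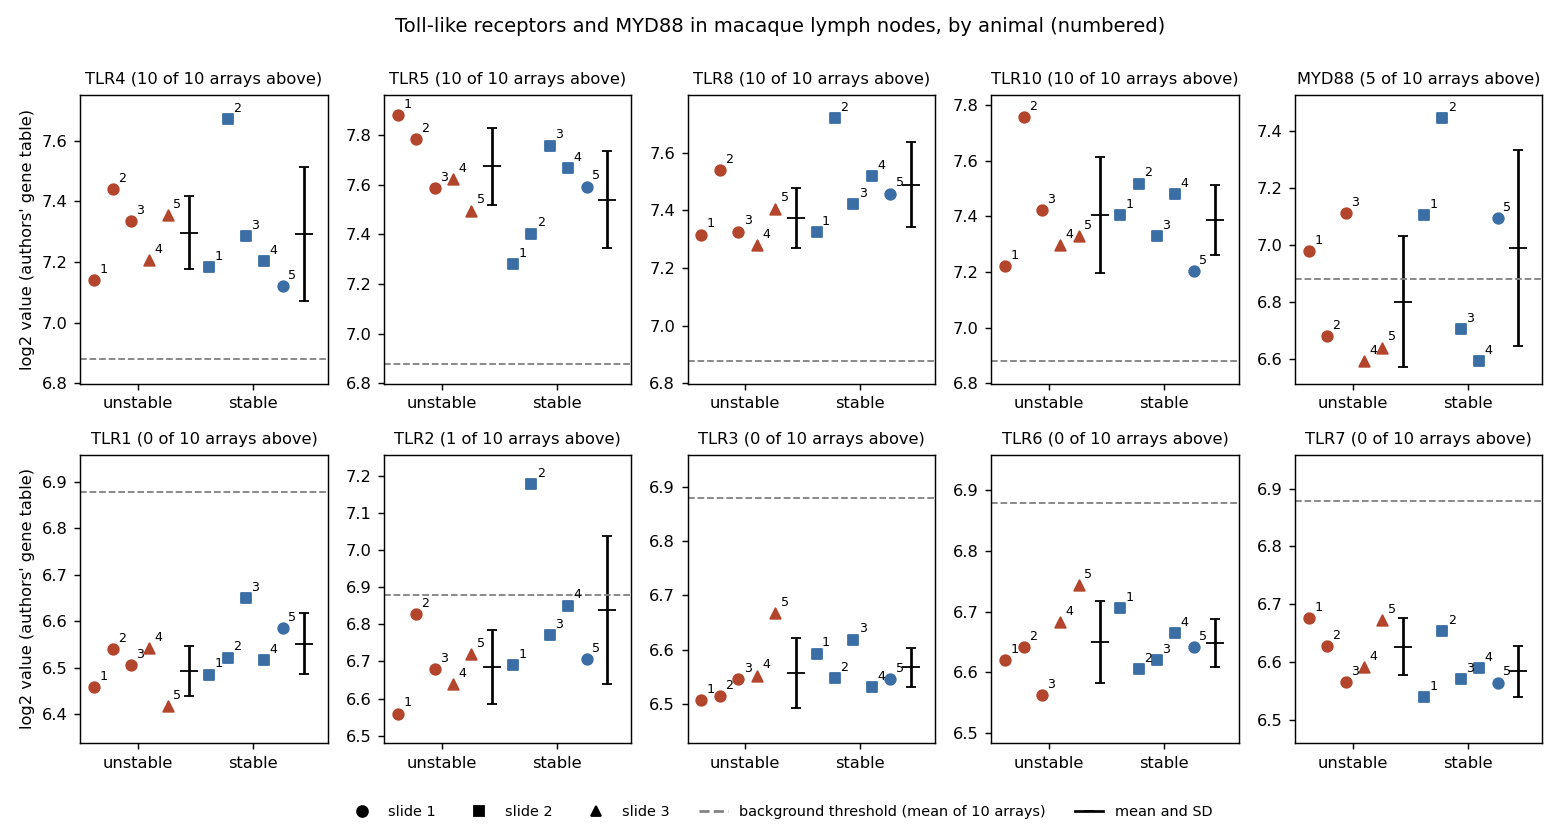
Log2 value of each member in each animal (points numbered by animal, shaped by slide), unstable animals left of stable animals, with the mean and SD of each group (n = 5 each) and the background threshold as a dashed line. The y axes differ between panels. TLR4, TLR5, TLR8 and TLR10 lie above the threshold in all animals, MYD88 lies on both sides of it in both groups, and the groups overlap in every panel.

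Social condition was not associated with a detected difference in any member. In limma's fit over all genes 0 of 10 members had a Benjamini-Hochberg adjusted p under 0.05, and 0 of all 18622 genes did (0%). At an unadjusted p under 0.05 the count was 0 of 10 members, against 956 of all genes (5.13%), and the smallest unadjusted p among the members was 0.116, for TLR2. The groups did not overlap for 0 members, against 0.838% of all genes. Mean values were lower in unstable animals for 5 members, against 51.1% of all genes, and the median difference was -0.0036 over the members and -0.0015 over all genes. The intervals below give the sizes that remain possible at this number of animals.

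Among the surface receptors, TLR4 had log2 values of 7.14, 7.44, 7.34, 7.21 and 7.35 in unstable animals 1 to 5, against 7.18, 7.67, 7.29, 7.20 and 7.12 in stable animals 1 to 5. The highest and the lowest of the 10 values were both from stable animals, and the unstable values lay between them. TLR4 averaged 7.30 ± 0.12 in unstable and 7.29 ± 0.22 in stable animals (SD, n = 5 each), a log2 difference of 0.0034 (SE 0.10) with a limma adjusted p of 0.997. The 95% confidence interval ran from 0.859 to 1.169 as the ratio of unstable to stable signal.

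TLR5, the flagellin receptor, had the largest positive difference of the 10 members when all 10 animals were compared. Its log2 values were 7.88, 7.78, 7.59, 7.62 and 7.50 in unstable animals 1 to 5, against 7.28, 7.40, 7.76, 7.67 and 7.59 in stable animals 1 to 5. The highest 2 of these values came from unstable animals and the lowest 2 from stable animals, while the other 6 were mixed. The difference was 0.13 (SE 0.10), with a limma adjusted p of 0.946 and an interval of the ratio from 0.941 to 1.279. It was 0.068 without stable animal 1, 0.082 without unstable animal 1, 0.056 with the age label as a covariate and 0.018 without the 3 older unstable animals, where TLR6, TLR7 and TLR3 lay above it at 0.066, 0.049 and 0.043. Within slide 1 TLR10 and TLR4 lay above it, at 0.26 and 0.19.

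TLR2, the shared partner of the lipopeptide receptors, had log2 values of 6.56, 6.83, 6.68, 6.64 and 6.72 in unstable animals 1 to 5, against 6.69, 7.18, 6.77, 6.85 and 6.71 in stable animals 1 to 5. Only stable animal 2 exceeded the background threshold. The difference of -0.15 (SE 0.09) had a limma adjusted p of 0.945, and without stable animal 2 it was -0.069, while within slide 1 it was -0.017. Its partners TLR1 and TLR6 stayed below the threshold throughout, with TLR1 at 6.42 to 6.54 in unstable and 6.48 to 6.65 in stable animals and TLR6 at 6.56 to 6.74 in unstable and 6.60 to 6.71 in stable animals. Their differences were -0.06 (SE 0.04) for TLR1, or -0.035 without stable animal 3, and 0.0026 (SE 0.038) for TLR6, and with both groups below background these are differences in background-level signal.

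TLR10 had log2 values of 7.22, 7.76, 7.42, 7.30 and 7.33 in unstable animals 1 to 5, against 7.40, 7.52, 7.33, 7.48 and 7.20 in stable animals 1 to 5. Unstable animal 2 was the highest and stable animal 5 the lowest, with the rest interleaved. The difference was 0.018 (SE 0.098), with a limma adjusted p of 0.994 and an interval of the ratio from 0.872 to 1.177. Without unstable animal 2 it was -0.069, and within slide 1, whose one stable animal was the lowest of all, it was 0.26. The TLR10 row equalled the mean of a pair of probes, whose own differences were 0.08 and -0.0017. On the quantile-normalized probe scale the first probe averaged 6.80 in unstable and 6.72 in stable animals, and the second 7.97 in each group. The second probe therefore carried most of the row's signal. The probes correlated at r = 0.382 over the animals, and the background threshold was not applied to them singly.

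Of the endosomal receptors TLR3, TLR7 and TLR8, only TLR8, a sensor of single-stranded RNA, was above background. Its log2 values were 7.32, 7.54, 7.33, 7.28 and 7.41 in unstable animals 1 to 5, against 7.33, 7.72, 7.42, 7.52 and 7.46 in stable animals 1 to 5. Of the 3 lowest values 2 were from unstable animals, and the highest was from stable animal 2. TLR8 averaged 7.37 ± 0.10 in unstable and 7.49 ± 0.15 in stable animals (SD, n = 5 each), a difference of -0.12 (SE 0.07) with a limma adjusted p of 0.945 and a two-sided exact permutation p of 0.19, where the regroupings of the animals allow no p below 0.00794. The interval of the ratio was 0.824 to 1.034, and the difference was -0.058 without stable animal 2 and -0.064 within slide 1.

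TLR3 and TLR7 stayed below the threshold in every animal. TLR3, the receptor for double-stranded RNA, lay at 6.51 to 6.67 in unstable and 6.53 to 6.62 in stable animals, a difference of -0.0097 (SE 0.037). TLR7 lay at 6.57 to 6.68 in unstable and 6.54 to 6.65 in stable animals, a difference of 0.04 (SE 0.034). The limma adjusted p was 0.991 for TLR3 and 0.95 for TLR7.

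MYD88 had a larger SD in each group than any receptor above background had in the same group, and its variation crossed the groups. Its log2 values were 6.98, 6.68, 7.11, 6.59 and 6.64 in unstable animals 1 to 5, against 7.10, 7.45, 6.71, 6.59 and 7.10 in stable animals 1 to 5. Unstable animals 1 and 3 and stable animals 1, 2 and 5 were above background, at 6.98 or more, and the other 5 animals were at 6.71 or less. MYD88 averaged 6.80 ± 0.23 in unstable and 6.99 ± 0.34 in stable animals (SD, n = 5 each), a difference of -0.19 (SE 0.16) with a limma adjusted p of 0.955 and an exact permutation p of 0.302. The interval of the ratio, 0.683 to 1.127, was the widest of the members. Without stable animal 2 the difference was -0.074, without stable animal 4 it was -0.288, without the 3 older unstable animals it was -0.373, and within slide 1 it was -0.172.

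**Figure D2:**
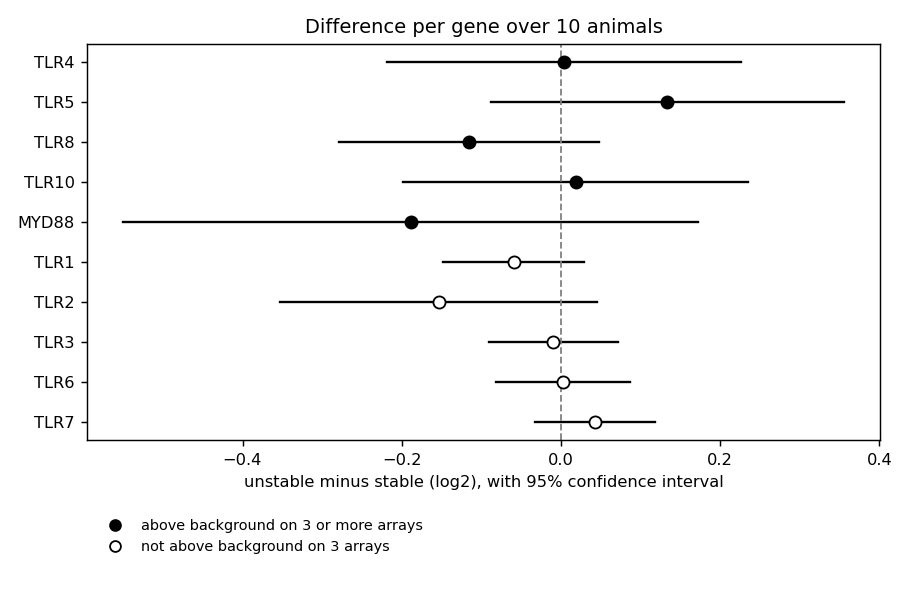
Difference in log2 value, unstable minus stable, for each member (points) with limma's 95% confidence interval (lines) over 10 animals. Filled points mark members above background on 3 or more arrays. Every interval includes 0, from the widest for MYD88 (-0.55 to 0.17) to the narrow intervals of members below background such as TLR7 (-0.03 to 0.12).

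One stable animal had the highest value of the 10 animals for 4 members. Stable animal 2 was at 7.18 for TLR2, where the next animal was at 6.85, at 7.67 for TLR4, where the next was at 7.44, at 7.72 for TLR8, where the next was at 7.54, and at 7.45 for MYD88, where the next was at 7.11. For TLR10 it was the second highest, and for TLR5 its value of 7.40 was the second lowest. The same animal had the highest CD14, at 11.27 against 10.38 to 11.02 in the other animals. CD14 is the lipopolysaccharide co-receptor of monocytes and macrophages. Among other markers of these cells CD163 was also highest in stable animal 2, at 8.39, while CD68 at 8.81 and CSF1R at 12.86 were not. LILRA4 was highest in this animal too, at 8.30. S100A9, a calprotectin subunit abundant in neutrophils, was at 12.06 in stable animal 2, 10.87 in stable animal 3 and 7.66 to 8.66 in the other 8 animals.

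Levels of cell type markers stand beside these values. The mean of the 5 neutrophil markers above background, of 10 measured, was 8.10 to 8.22 in unstable and 8.17 to 9.05 in stable animals, highest in stable animal 2, while S100A12, IL8RB and MMP8 were above background on no array. The mean of the 10 monocyte and macrophage markers above background, of 14 measured, was 9.47 to 9.93 in unstable and 9.26 to 10.45 in stable animals, highest in stable animal 3, while FCGR3A, ITGAM, MSR1 and LYZ passed on no array. The 5 B cell markers above background, of 8 examined, averaged 9.20 to 9.55 in unstable and 9.17 to 9.63 in stable animals, while MS4A1, PAX5 and BLK passed on no array. Stable animal 2 also had the highest means of the plasmacytoid (8.09) and classical (8.58) dendritic cell markers above background. These were 6 and 5 genes, each of 9 measured. The T cell, plasma cell and stroma lists were highest in other animals. The part of these cell types in the levels of TLR2, TLR4, TLR8 and MYD88 was not tested, and in bulk tissue fewer cells of a type and less RNA per cell cannot be told apart.

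**Figure D3:**
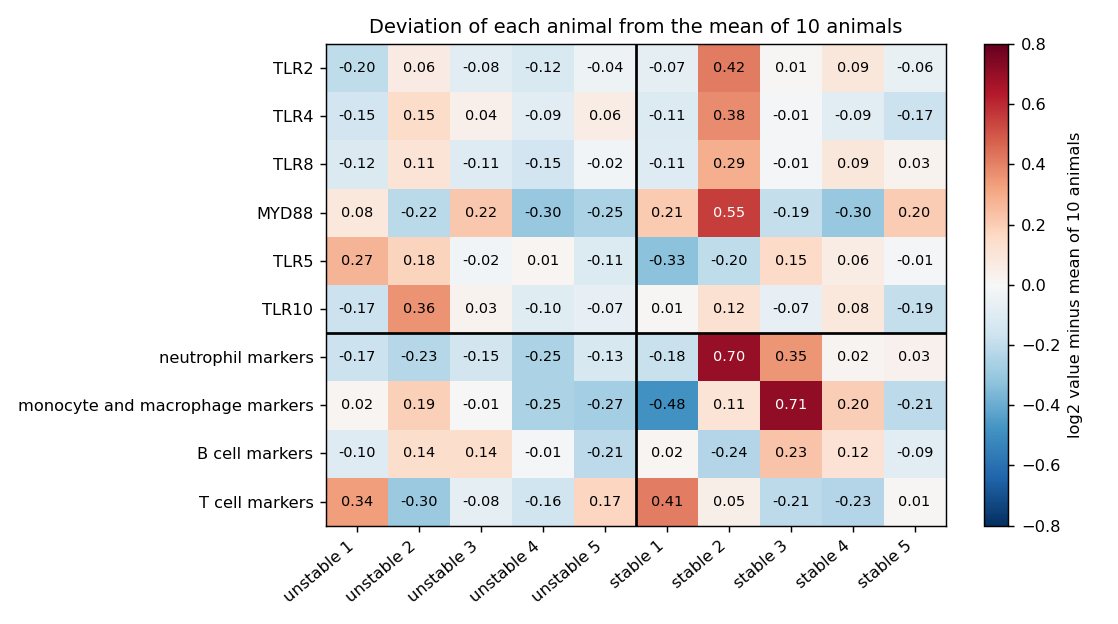
Deviation of each animal (columns, unstable left of stable) from the mean of the 10 animals, in log2 units, for 6 members (upper rows) and the mean of 4 marker lists (lower rows). Stable animal 2 stands 0.29 to 0.55 above the mean for TLR2, TLR4, TLR8 and MYD88. It stands 0.70 above the mean for the neutrophil marker list, where S100A9 makes up most of the rise. TLR5 and TLR10 follow other animals.

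Across the 10 animals the members above background did not share one pattern. Of 25 relations computed, 10 between members and 15 between a member and a marker list, 0 passed after Benjamini-Hochberg adjustment. TLR4 and TLR8 had Pearson's r = 0.735 (permutation p = 0.0187, adjusted 0.27) and Spearman's rho = 0.479 (permutation p = 0.166, adjusted 0.593). The relation rested on few animals, with r = 0.311 after leaving out the 2 animals farthest from the median of TLR8. TLR4 and TLR10 had r = 0.64 (permutation p = 0.0529, adjusted 0.369) and rho = 0.709 (permutation p = 0.0269, adjusted 0.453), and r = 0.605 without the 2 animals farthest from the median of TLR10. TLR8 and TLR10 had r = 0.561 (permutation p = 0.0958, adjusted 0.399) and rho = 0.624 (permutation p = 0.0612, adjusted 0.453). Their r was 0.732 without the same 2 animals.

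TLR8 and the mean of the neutrophil markers had r = 0.734 (permutation p = 0.0216, adjusted 0.27) and rho = 0.6 (permutation p = 0.0733, adjusted 0.453). Their r was 0.489 without the 2 farthest animals, stable animals 2 and 3, and 0.328 without stable animal 2 alone. Those 2 animals were the ones with high S100A9, which dominates this mean. MYD88 and TLR4 had r = 0.351 (permutation p = 0.333, adjusted 0.682) and rho = 0.091 (permutation p = 0.813, adjusted 0.968), and r = -0.594 without the 2 animals farthest from the median of MYD88. No slide held more than 4 animals, too few for values within a slide.

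For each member above background, the 2 genes with the most similar pattern over the 10 arrays were found by the mean absolute distance between standardised values, in SD units. TLR4 lay nearest to DKC1, a pseudouridine synthase, at 0.194, and to EMG1, a ribosome biogenesis factor, at 0.243. TLR10 lay nearest to SEMA7A, a membrane-anchored semaphorin, at 0.176, and to BCL11A, a transcription factor of B cell development, at 0.306. The nearest genes were ACSL3 at 0.158 and CELSR1 at 0.289 for MYD88, C16orf7 at 0.211 and TSPAN17 at 0.242 for TLR8, and TMED3 at 0.312 and DYNC1LI2 at 0.326 for TLR5. The median distance to all genes above background was 1.06 to 1.11, and no member was among the 2 nearest genes of another. Ranked by distance among genes above background, TLR8 was at 68 from TLR4, and TLR4 was at 91 from TLR8 and 134 from TLR10. TLR5 and MYD88 ranked at 2458 or farther from each of these receptors.

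**Figure D4:**
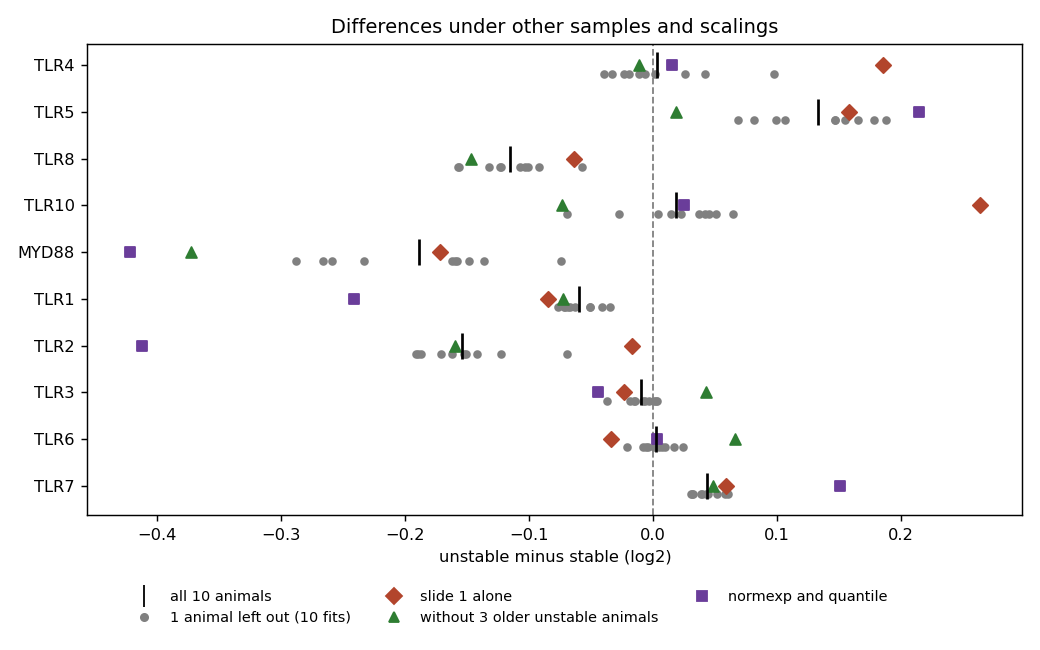
Difference in log2 value, unstable minus stable, for each member with all 10 animals (bars), with 1 animal left out (grey points), within slide 1, without the 3 older unstable animals, and with normexp background correction and quantile scaling, which TLR8 lacks because its row was matched to no probe. MYD88, TLR1, TLR2 and TLR8 stay below 0 and TLR5 and TLR7 above 0 in all of these, while TLR3, TLR4, TLR6 and TLR10 fall on both sides.

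The rest of the pathway was described over 7 lists holding 102 genes, of which 100 were measured and 57 were above background on 3 or more arrays. None of the 100 passed limma's adjusted threshold. At an unadjusted p under 0.05 there were 4 genes with higher and 7 with lower values in unstable animals, where all genes gave 2.41% higher and 2.73% lower. Of the 57 above background 8 had an unadjusted p under 0.05, against 6.89% of all genes above background. Means were lower in unstable animals for 67 of the 100, against 51.1% of all genes, with a median difference of -0.027. Within slide 1 they were lower for 52 of the 100, with a median of -0.0037. Slide 1 held 1 stable animal and the 3 older unstable animals, so its values rest on that stable animal and do not separate slide from age.

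Of 12 accessory and co-receptor genes, 7 had higher and 5 lower means in unstable animals. KIAA0644, the older symbol of TRIL, a TLR3 and TLR4 accessory protein, had log2 values of 8.05, 8.00, 7.88, 7.87 and 7.54 in unstable animals 1 to 5, against 7.45, 6.97, 7.70, 7.85 and 7.60 in stable animals 1 to 5. The 4 highest values were from unstable animals, and the difference was 0.35 (SE 0.15, limma adjusted p = 0.942). It was 0.218 without stable animal 2 and 0.19 without the 3 older unstable animals. CD36, a scavenger receptor that works with TLR2, differed by 0.51 (SE 0.24, limma adjusted p = 0.942), with unstable animal 4 at 8.92 and the other animals at 7.25 to 8.32, and by 0.322 without unstable animal 4. LBP, which hands lipopolysaccharide to CD14, was above background on 2 arrays and differed by 0.10 (SE 0.05), or 0.054 without stable animal 1 and 0.056 within slide 1.

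Among 5 adaptors other than MYD88, 4 had lower means in unstable animals, against 51.1% of all genes. PIK3AP1, an adaptor of B cell receptor and Toll-like receptor signalling, averaged 10.65 ± 0.37 in unstable and 11.09 ± 0.35 in stable animals (SD, n = 5 each), a difference of -0.44 (SE 0.20, limma adjusted p = 0.942), with -0.277 within slide 1 and -0.684 without the 3 older unstable animals. TIRAP, the bridging adaptor of TLR2 and TLR4, and TICAM1, the adaptor of TLR3, were above background on 0 arrays, with differences of -0.06 and 0.04.

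Of 24 kinases and ubiquitin ligases downstream of MYD88, 17 had lower means, against 51.1% of all genes. IRAK1, a kinase recruited by MYD88, had log2 values of 8.27, 8.42, 8.35, 8.38 and 8.26 in unstable animals 1 to 5, against 8.57, 8.48, 8.62, 8.49 and 8.41 in stable animals 1 to 5. Unstable animal 2 lay above stable animal 5 alone, and that pair was the one overlap between the groups. The difference was -0.18 (SE 0.05, limma unadjusted p = 0.00379, adjusted p = 0.918), and it was -0.06 within slide 1 and -0.097 with median scaling of intensities. PELI1, a ubiquitin ligase acting on IRAK proteins, averaged 8.49 ± 0.09 in unstable and 8.34 ± 0.11 in stable animals (SD, n = 5 each), a difference of 0.15 with a limma adjusted p of 0.942, which was 0.087 without the 3 older unstable animals and 0.23 with median scaling. IRAK4, the kinase that binds MYD88 first, was above background on 0 arrays, and its groups did not overlap at 6.49 to 6.55 in unstable and 6.57 to 6.74 in stable animals (limma adjusted p = 0.942). It was the one gene of the 100 without overlap, against 0.838% of all genes.

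Transcription factors of the pathway had lower means in 9 of 13 cases, against 51.1% of all genes. Of the 13, 3 had an unadjusted limma p under 0.05, all of them lower, against 2.73% of all genes. IRF3, which TLR3 and TLR4 activate through TICAM1, averaged 9.38 ± 0.06 in unstable and 9.52 ± 0.12 in stable animals (SD, n = 5 each, limma adjusted p = 0.942), a difference of -0.145 that was -0.024 with median scaling and -0.271 within slide 1. The others were IRF1 and IRF7, with limma differences of -0.17 and -0.16. For IRF1 the difference was -0.07 without the 3 older unstable animals, -0.099 with the age label as a covariate, -0.102 with median scaling and -0.286 within slide 1. IRF7 was above background on 4 arrays, and its difference was -0.08 within slide 1. Pathway inhibitors had lower means in 16 of 20 cases, against 51.1% of all genes. PTPN6, the phosphatase SHP-1, averaged 9.59 ± 0.16 in unstable and 9.85 ± 0.10 in stable animals (SD, n = 5 each), a difference of -0.26 (SE 0.08, limma adjusted p = 0.918) that was -0.023 within slide 1 and -0.405 without the 3 older unstable animals. NFKBIB, an inhibitor of NF-kappa-B, differed by -0.10 (SE 0.05), or -0.041 without the 3 older unstable animals and -0.063 with the age label as a covariate. TRAFD1, a feedback inhibitor above background on 1 array, differed by 0.13 (SE 0.05), or 0.21 within slide 1.

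Cytokines and chemokines that Toll-like receptors induce were mostly dim, with 7 of 19 above background. Of these 19 genes 13 had lower means in unstable animals, against 51.1% of all genes, and 1 had an unadjusted limma p under 0.05, against 5.13%. That gene was IL12B, a subunit of interleukins 12 and 23, which was above background on 0 arrays, at 6.46 to 6.52 in unstable and 6.35 to 6.48 in stable animals (limma adjusted p = 0.942). IL1B was above background on 2 arrays, with unstable animal 5 at 6.89 and stable animal 2 at 7.15, and differed by -0.09 (SE 0.09). Its difference was -0.016 without stable animal 2, -0.051 without unstable animal 1, -0.032 with the age label as a covariate and -0.014 without the 3 older unstable animals. IL23A was above background on 1 array and differed by -0.07 (SE 0.06), or -0.021 without stable animal 5, -0.042 without unstable animal 2, -0.109 without stable animal 1 and -0.276 within slide 1.

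Among 7 other receptors of the family and of the interleukin 1 family that signal through MYD88, 4 had higher and 3 lower means, and 0 had an unadjusted p under 0.05. The genes with the smallest p were IL18R1, IL1RAP and IL1RL2, at differences of -0.06, -0.05 and 0.05, and all of them were above background on 0 arrays. Without stable animal 2 IL1RAP was at -0.028 and IL1RL2 at 0.013, and within slide 1 IL1RL2 was at 0.0006.

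**Figure D5:**
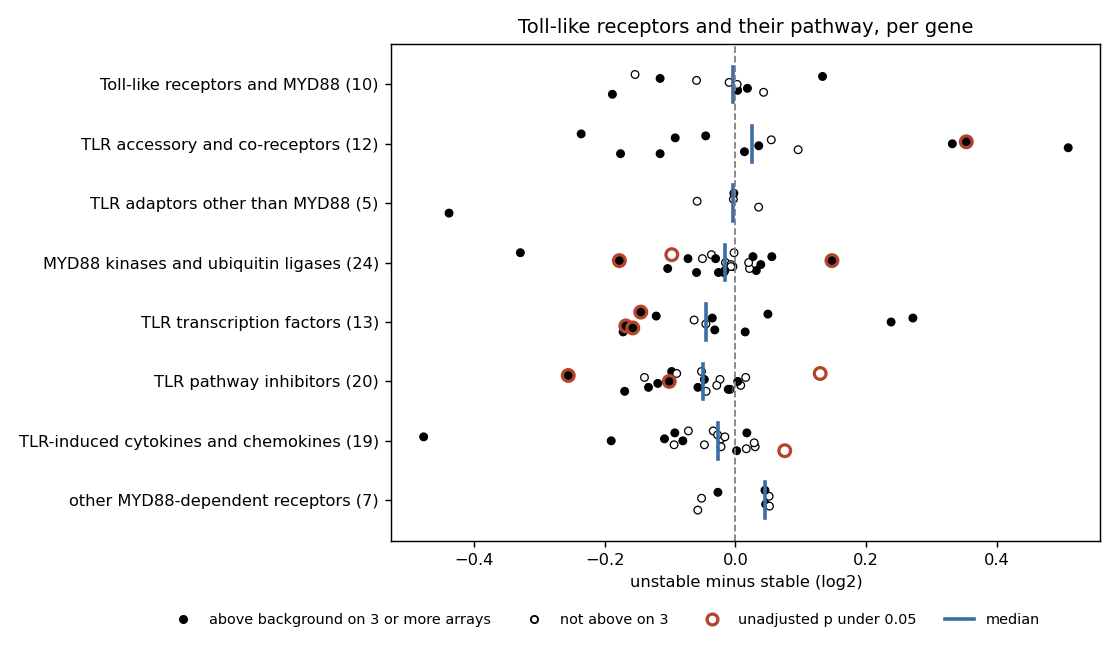
Difference in log2 value, unstable minus stable, for each measured gene of the members and of 7 pathway lists (number of genes in brackets), with the median of each list as a bar. Filled points are above background on 3 or more arrays, and ringed points have an unadjusted limma p under 0.05. No member is ringed, and the medians, taken over all measured genes of a list, lie between -0.05 and 0.05.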

How the data were processed

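Per the submitters' processing notes the software was GenomeStudio, with no version given. The authors deposited raw probe intensity values, not scaled between arrays, for 24526 probes listed with no gene name and no detection call. They also deposited log2 values of 18622 genes, listed by symbol, with nearly the same distribution on every array. The normalization software is not given in the sources used here. Groups and replicate numbers came from the labels. No label names a slide: arrays were taken to share a slide when the array names in their descriptions began with the same number.

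The log2 table was tested as deposited, by a moderated linear model of group alone (limma 3.58.1, R 4.3.3). The test was two-sided, with Benjamini-Hochberg adjustment over all genes and a threshold of 0.05. It was checked on simulated data with shifts larger than the member differences, so the check does not give the power at their size. Standard errors and 95% intervals are those of the moderated fit. Where an exact permutation p is given, it covers every split of the animals into groups of 5, and correlation p-values come from 100000 permutations. Detection p-values were lacking, so background came from each array's mode. Matching gene rows to quantile-normalized probes gave 14705 rows equal to 1 probe within 0.006 and 1963 equal to the mean of 2 probes within 0.012, with 1954 unmatched; TLR8 was unmatched. Mismatches between human probes and macaque transcripts can lower signals, and background light shrinks log2 differences of dim genes.

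The members, lists and tests were chosen with earlier results of these data known. Named genes are all members, the 3 genes of smallest p in each pathway list, the 2 most similar genes of each member above background, and the 2 first genes of each marker list, 1 of which is not reported here and was left out of its list. Alternatives were slide as a block or slide 1 alone, age, the replicate block, other variance models, normexp with an offset of 16, median scaling, filters on dim genes, and each animal left out. Replicate numbers were not taken as a pairing in the main fit. Deviations of same-numbered animals correlated at -0.06 to 0.007, which cannot show whether animals were paired by design. Figures used matplotlib 3.10.9.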

Additional observations from a re-analysis of the deposited data

Results flagged for a closer look

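One value among the members stood apart from the others of its group. TLR3 was at 6.67 in unstable animal 5, while the other 4 unstable animals lay at 6.51 to 6.55, so that the gap to the next animal made up 0.722 of the group's range, above Dixon's critical value of 0.71 for 5 animals. TLR3 was below background in all animals. It was the 1 such value in 20 groups of animals examined, and chance gives about 1 in 20.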

How the results depend on the processing

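No member passed the adjusted threshold under any of 22 other settings, the smallest limma adjusted p being 0.681. At an unadjusted p under 0.05 there were 2 members with the replicate block, TLR2 and TLR8, each with a limma adjusted p of 0.946, and 1 with median scaling of intensities, TLR1, with a limma adjusted p of 0.737. The replicate numbers are not known to pair animals. Over all genes, 1 passed with slide as a fixed block and 1 without the 3 older unstable animals, neither of them a member. The count of members above background was 4 on all 10 arrays and 6 on 1 or more.

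Of 207 member differences recomputed, 26 changed sign, all of TLR3, TLR4, TLR6 or TLR10. With the age covariate the differences were -0.046 for TLR10, 0.0295 for TLR3 and -0.003 for TLR4, and without the older animals -0.074, 0.043 and -0.012. Within slide 1, and with slide as a fixed block, TLR6 was at -0.034, IL12B at -0.0048 and IL18R1 at 0.0031. TLR4 was at -0.015 with slide as a random block, whose estimated correlation was -0.084, and TLR6 at -0.0089 with array weights and -0.011 with median scaling. With 1 animal left out, TLR10 ranged from -0.069 to 0.064, TLR3 from -0.037 to 0.003, TLR4 from -0.0397 to 0.0979 and TLR6 from -0.021 to 0.024. The median of the accessory genes was -0.016 over those above background. That of the adaptors was -0.22 over the 2 above background, and that of the inhibitors -0.0995 over the 10 above background. Within slide 1 the median of the kinases was 0.0024 and that of the adaptors 0.031. The cause of these changes was not tested. With normexp correction and quantile scaling, differences of several dim members were larger, at -0.422 for MYD88, -0.412 for TLR2, -0.241 for TLR1 and 0.151 for TLR7. Their limma adjusted p was 0.941 to 0.943, against 0.945 to 0.955 in the main fit, so the larger values were no better separated from 0. TLR6, also dim, was at 0.003. Only slide 1 held both groups, with 1 stable animal, so slide, age label and social condition cannot be told apart.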
